A study of Mus musculus with 24 samples.

Results

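The Gadd45 family was followed through 24 arrays of cultured mouse retinal endothelial cells. Its members were chosen by symbol: every probe set that the platform annotation assigns to Gadd45a, Gadd45b, Gadd45g or Gadd45gip1. There were 7 such probe sets for 4 genes, among 34945 probe sets with a single gene symbol and 18193 genes. The family was picked because Gadd45a responded to Matrigel in opposite directions in wild type and Fz4-/- cells, so the Matrigel values, and the genotype difference on each surface, are descriptions without a test.

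The cells were retinal endothelial cells from adult animals, both genders mixed, whose background combined C57Bl6/129. They were either wild type or Fz4-/-, the latter lacking the receptor Frizzled4 (gene Fzd4). Each genotype was grown alone on gelatin-coated plates, alone for 6 h on Matrigel after 24 h of starvation in 1% serum, or together with human HEK293 cells that either expressed Norrin or served as control. Each of these 8 groups had 3 replicate arrays, all cultures were kept at 37 °C, and co-culture RNA was about equal parts mouse and human, per the labels. The labels do not say whether replicates were separate cultures, so the p-values below measure the spread between these arrays, which may be technical. Matrigel and gelatin cultures also differed in starvation, and the effects of surface and starvation cannot be told apart. In these bulk samples, fewer cells of a type and less RNA per cell cannot be told apart either.

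Gadd45a, Gadd45b and Gadd45g encode small, related proteins named for growth arrest and DNA damage. They have no enzyme activity of their own: they bind and activate the kinase MEKK4 (gene Map3k4) upstream of p38 and JNK, bind the G2/M kinase Cdk1, the replication clamp PCNA and the cell cycle inhibitor p21, and have been tied to DNA demethylation. Gadd45a is a classic p53 target, Gadd45b a target of NF-kB and TGF-beta, and Gadd45g a cytokine-induced gene. Gadd45gip1, also called CRIF1, is not related in sequence: it was named for binding Gadd45 proteins and is a protein of the large subunit of the mitochondrial ribosome. Norrin is the ligand by which retinal glia activate Frizzled4 and beta-catenin signalling in retinal vessels, which is needed for their growth and their barrier.

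On RefSeq's mouse assembly GRCm38.p6, Gadd45a lies at chr6:67035096-67037407, Gadd45b at chr10:80930091-80932204, Gadd45g at chr13:51846675-51848475 and Gadd45gip1 at chr8:84832282-84835482. RefSeq promoter sequences matched 3 of the 4 members, Gadd45a, Gadd45b and Gadd45g, and the 250 bases before each start site are shown because these stress genes moved differently under the same treatments. They lie at chr6:67037408-67037657 on the minus strand for Gadd45a, at chr10:80929841-80930090 on the plus strand for Gadd45b and at chr13:51846425-51846674 on the plus strand for Gadd45g. Each is written 5′ to 3′ and ends at the base before the start. Capitals mark the octamer ATTTGCAT on either strand, the CCAAT box, the TATA box (letters TATAAA) and the E-box (letters CACGTG).
Gadd45a: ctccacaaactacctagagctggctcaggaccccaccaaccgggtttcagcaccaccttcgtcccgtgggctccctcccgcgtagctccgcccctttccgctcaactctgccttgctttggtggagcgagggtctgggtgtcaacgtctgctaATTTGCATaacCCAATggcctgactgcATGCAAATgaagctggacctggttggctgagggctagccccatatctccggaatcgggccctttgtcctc
Gadd45b: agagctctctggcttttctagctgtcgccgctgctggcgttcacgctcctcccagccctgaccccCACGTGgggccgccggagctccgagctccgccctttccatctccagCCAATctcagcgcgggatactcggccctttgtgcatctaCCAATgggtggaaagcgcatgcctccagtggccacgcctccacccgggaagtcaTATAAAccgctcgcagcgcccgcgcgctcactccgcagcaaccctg
Gadd45g: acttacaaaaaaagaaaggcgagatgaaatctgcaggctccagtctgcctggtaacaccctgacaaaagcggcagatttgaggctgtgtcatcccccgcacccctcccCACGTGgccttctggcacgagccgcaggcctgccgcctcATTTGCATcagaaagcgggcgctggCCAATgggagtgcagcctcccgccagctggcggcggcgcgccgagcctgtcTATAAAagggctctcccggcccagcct

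The octamer was found on both strands in Gadd45a, starting 97 and 70 bases before the start, and once in Gadd45g, 103 bases before it. Gadd45b had no match to the octamer in this window. Gadd45b had CCAAT at 139 and 100 bases and TATAAA at 46 bases, and Gadd45g had CCAAT at 78 bases and TATAAA at 27 bases. Gadd45a had CCAAT at 86 bases and no TATAAA or CACGTG, whereas CACGTG stood at 185 bases in Gadd45b and at 142 bases in Gadd45g. Among 32851 RefSeq promoter windows of the same length, searched on both strands, 1.6% held the octamer, 33.8% CCAAT, 12.4% TATAAA and 6.02% CACGTG. TGACGTCA and CTTTGAT, which 1.55% and 3.21% of windows held, had no match in any of the 3. None of these motifs overlapped another in the 3 windows, and a match describes the letters only.

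The genotype labels were checked on Fzd4, which was lower in Fz4-/- cells by 3.69 ± 0.156 (log2, SE) over both surfaces, and by 3.42 ± 0.101 and 3.64 ± 0.101 in the co-cultures with control and Norrin-expressing HEK293 cells. Of 12 endothelial markers, 10 to 11 lay above the 75th percentile of each single-culture group and 6 to 10 in the co-cultures, Vwf being low throughout. No marker of fibroblasts, pericytes, glia, photoreceptors, pigment epithelium, myeloid or epithelial cells lay above the 75th percentile, except the fibroblast gene Dcn in wild type co-cultures with control HEK293 cells. Array medians fell into 3 sets, 5.61 to 5.74 in single cultures, 3.79 to 3.84 in wild type co-cultures and 3.56 to 3.67 in Fz4-/- co-cultures, so genotype and array set cannot be told apart in the co-cultures. Replicate 1 stood apart from replicates 2 and 3 in the 6 groups other than the Fz4-/- co-cultures: the SD of its differences was 0.299 to 0.354, against 0.147 to 0.193 between replicates 2 and 3.

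All values below are log2 intensities from RMA, the summary used by the submitters, and each gene is read from its brightest probe set. Levels of different genes are not compared, since probes differ in brightness. The position of a gene within its own array is given instead. In single cultures Gadd45a lay between the 59.9 and 76.7 percentiles of all named probe sets, Gadd45b between 76.3 and 94.1, Gadd45g between 88.8 and 93.7, and Gadd45gip1 between 75.9 and 83.2. In co-cultures the ranges were 75.4 to 88.3 for Gadd45a, 77.5 to 96.5 for Gadd45b, 75.7 to 92.5 for Gadd45g and 76.3 to 84.2 for Gadd45gip1. Each member's best probe set was thus above the middle of every array.

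**Figure D1:**
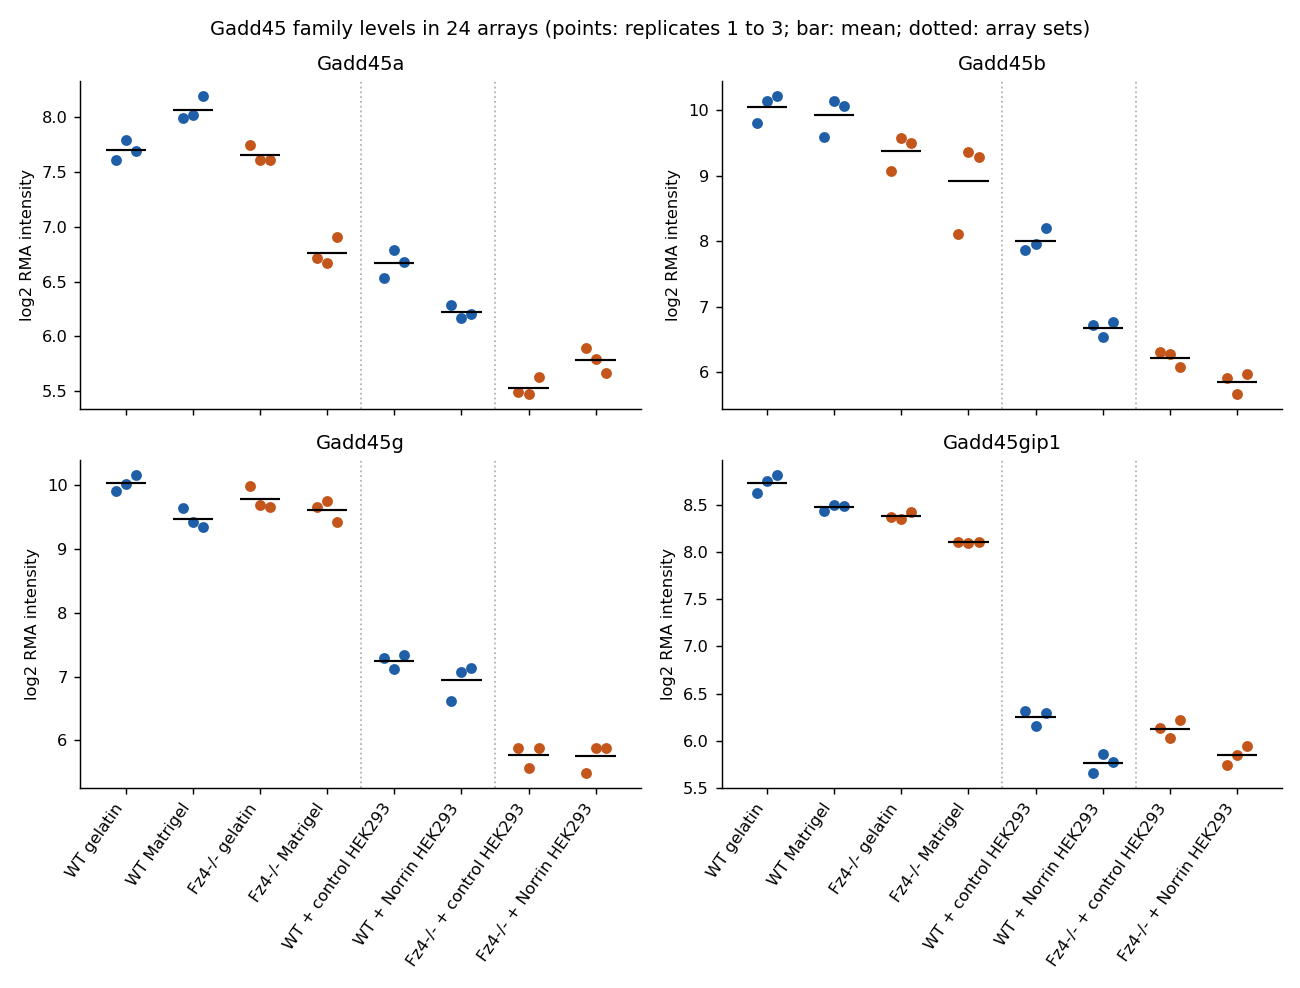
Log2 RMA intensity (vertical axes) of the 4 members in each of the 8 groups (horizontal axis), with 1 point per replicate array, the group mean as a bar and dotted lines between the 3 array sets. Gadd45a is lowest among single cultures in Fz4-/- cells on Matrigel, at a mean of 6.76, and Gadd45b is highest among co-cultures in wild type cells with control HEK293 cells, at 8.01.

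On Matrigel, Gadd45a moved in opposite directions in the 2 genotypes, which is the pattern the family was chosen for. Wild type cells read 7.61, 7.79 and 7.69 on gelatin and 7.99, 8.01 and 8.19 on Matrigel. Fz4-/- cells read 7.74, 7.61 and 7.61 on gelatin and 6.71, 6.67 and 6.90 on Matrigel. All 3 wild type arrays on Matrigel were above all 3 on gelatin, and all 3 Fz4-/- arrays on Matrigel were below all 3 on gelatin. The difference was 0.37 ± 0.0929 (log2, SE) in wild type and -0.89 ± 0.0929 in Fz4-/- cells. The second minus the first was -1.26 ± 0.131, a value that the choice of the family used. In the order of the 4 levels, wild type on Matrigel (8.06 ± 0.11, SD, n = 3) stood first, wild type and Fz4-/- on gelatin (7.70 ± 0.0884 and 7.65 ± 0.0792) overlapped, and Fz4-/- on Matrigel (6.76 ± 0.123) stood last.

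The other members did not show this pattern in their values. Gadd45b read 9.81, 10.13 and 10.22 on gelatin and 9.59, 10.14 and 10.06 on Matrigel in wild type cells. Fz4-/- cells read 9.07, 9.57 and 9.50 on gelatin and 8.11, 9.37 and 9.29 on Matrigel. Arrays on the 2 surfaces overlapped in both genotypes, and replicate 1 was the lowest array of each genotype on each surface. The difference in Fz4-/- cells was -0.46 ± 0.291, -0.21 without replicate 1 of every group, and -0.05 without replicate 1 on Matrigel alone. Each Matrigel array of Fz4-/- cells was below the gelatin array of the same replicate number, and same-numbered arrays deviated together in this comparison (correlations 0.403 to 0.661). However, an array was closest to its own number in only 3 of 6 checks, so pairing by number is not shown.

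Gadd45g read 9.92, 10.02 and 10.17 on gelatin and 9.64, 9.42 and 9.35 on Matrigel in wild type cells, without overlap, a difference of -0.57 ± 0.125. Fz4-/- cells read 9.99, 9.69 and 9.66 on gelatin and 9.66, 9.76 and 9.42 on Matrigel, with overlap, a difference of -0.17 ± 0.125. Gadd45g was thus lower on Matrigel in the genotype in which Gadd45a was higher. Gadd45gip1 read 8.62, 8.75 and 8.82 on gelatin and 8.44, 8.50 and 8.49 on Matrigel in wild type cells, and 8.37, 8.35 and 8.43 against 8.10, 8.09 and 8.11 in Fz4-/- cells. With this probe set every Matrigel array was below every gelatin array of its genotype, with differences of -0.25 ± 0.0731 and -0.28 ± 0.0731. The dimmer 1448776_at overlapped between surfaces and read 0.11 ± 0.106 in wild type and 0.02 ± 0.106 in Fz4-/- cells, and the mean of both probe sets gave -0.07 and -0.13.

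In all, the arrays of the 2 surfaces did not overlap for 3 of the 4 members in wild type cells and for 2 of 4 in Fz4-/- cells. Among all genes this held for 38.5% and 39.1%, so the family's count is a description only. On gelatin, the genotypes did not overlap for Gadd45b and Gadd45gip1, 2 of the 4 members, against 32.6% of all genes. On Matrigel they did not overlap for Gadd45a, Gadd45b and Gadd45gip1, 3 of 4, against 32.7% of all genes. The Matrigel values of Gadd45a chose the family, so every count that holds them was partly set beforehand and is a description only.

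**Figure D2:**
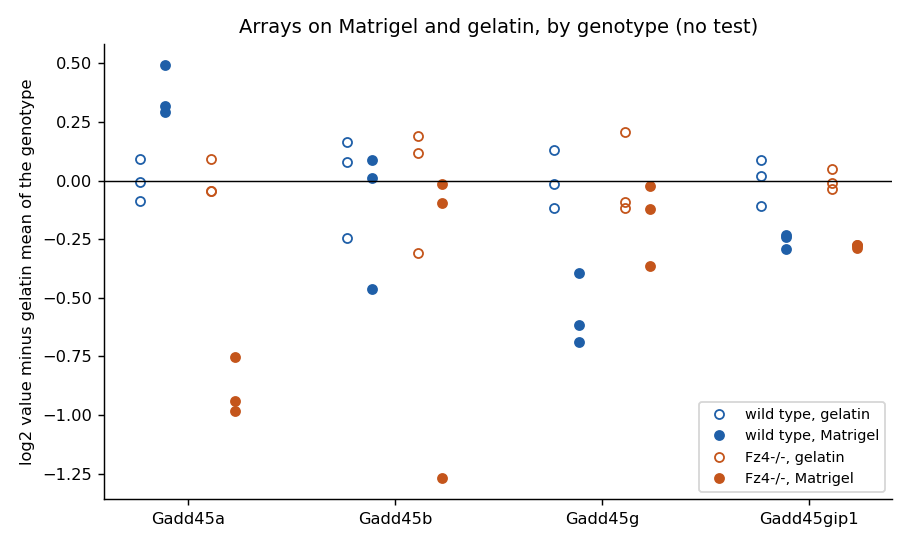
Log2 value of each array minus the gelatin mean of its genotype (vertical axis) for the 4 members, with open points for gelatin and filled points for Matrigel. Gadd45a lies above 0 on Matrigel in wild type and below it in Fz4-/- cells, and the lowest point of Gadd45b is replicate 1 of Fz4-/- cells on Matrigel.

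Genes that work with the family were followed on Matrigel too, as counts past an adjusted p of 0.05 (limma). Of 12 partners and p38/JNK genes, 2 rose and 2 fell in wild type cells and 1 rose and 3 fell in Fz4-/- cells, where 18.4% and 19.7% of all genes were called. Map3k4, the kinase that Gadd45 proteins activate, rose by 0.45 ± 0.0868 (limma adjusted p = 0.00531) in wild type and by 0.41 ± 0.0868 (limma adjusted p = 0.00777) in Fz4-/- cells. Cdkn1a, the p53 target that encodes p21, fell by 0.45 ± 0.112 and by 0.43 ± 0.112 (limma adjusted p = 0.0179 and 0.0198). These 2 genes thus moved the same way in both genotypes. Of 20 p53 target genes, 1 rose and 2 fell in wild type and 2 fell in Fz4-/- cells, and no gene of these lists passed the test of a difference between the genotypes' Matrigel responses, which 0.0165% of all genes passed.

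With Norrin, 3 of the 4 members were lower in wild type cells. Gadd45b fell 2.51-fold, Gadd45gip1 1.4-fold and Gadd45a 1.36-fold with Norrin-expressing HEK293 cells compared with control HEK293 cells. Of all genes, 9.57% were called in this comparison and 4.18% were called lower. In Fz4-/- cells none of the 4 members passed the test, where only 0.456% of all genes were called.

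Gadd45b read 7.87, 7.95 and 8.20 with control and 6.73, 6.53 and 6.77 with Norrin-expressing cells in wild type. The highest Norrin array lay 1.1 below the lowest control array. The difference was -1.33 ± 0.122 (95% interval -1.59 to -1.07, limma adjusted p = 1.03e-06), and only 27 genes among 18193 had a lower value. The other probe sets of Gadd45b also fell, 1449773_s_at by 1.56 ± 0.108 (limma adjusted p = 1.81e-07 over all named probe sets) and the dimmer 1420197_at by 0.47 ± 0.123 (limma adjusted p = 0.0295).

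Gadd45a read 6.53, 6.79 and 6.68 with control and 6.28, 6.17 and 6.20 with Norrin-expressing cells in wild type, without overlap. The difference was -0.45 ± 0.107 (95% interval -0.67 to -0.22, limma adjusted p = 0.0112). Without replicate 2 of the wild type control co-cultures it was -0.39 (limma adjusted p = 0.0584), and fitted on the compared arrays alone -0.45 (limma adjusted p = 0.0605).

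Gadd45gip1 read 6.31, 6.16 and 6.29 with control and 5.66, 5.86 and 5.78 with Norrin-expressing cells in wild type, without overlap. The difference was -0.49 ± 0.105 (95% interval -0.71 to -0.27, limma adjusted p = 0.00553). Its other probe set, 1448776_at, lay between the 42 and 52.2 percentiles of these arrays and read -0.03 ± 0.154 (limma adjusted p = 0.953), so the fall was seen with 1 of its 2 probe sets. Gadd45g read 7.30, 7.12 and 7.34 with control and 6.63, 7.07 and 7.14 with Norrin-expressing cells. These arrays overlapped, and the difference of -0.31 ± 0.147 (95% interval -0.62 to 0.00, limma adjusted p = 0.236) did not pass.

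In Fz4-/- cells the members were given the same treatment without the receptor. Gadd45a read 5.50, 5.47 and 5.64 with control and 5.90, 5.79 and 5.67 with Norrin-expressing cells. The groups were apart by 0.0314, with the Norrin arrays higher, and the difference was 0.25 ± 0.107 (95% interval 0.02 to 0.47, limma adjusted p = 0.529). Gadd45b read 6.31, 6.27 and 6.08 with control and 5.91, 5.66 and 5.97 with Norrin-expressing cells, a difference of -0.37 ± 0.122 (95% interval -0.63 to -0.12, limma adjusted p = 0.319) without overlap. Gadd45b values were thus lower with Norrin-expressing cells in both genotypes, with the larger difference in wild type.

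Gadd45gip1 read 6.13, 6.03 and 6.22 with control and 5.74, 5.85 and 5.95 with Norrin-expressing cells in Fz4-/- cells, a difference of -0.28 ± 0.105 (95% interval -0.50 to -0.06, limma adjusted p = 0.419) without overlap. Its other probe set, 1448776_at, overlapped and read 0.14 ± 0.154 (limma adjusted p = 0.911). Gadd45g read 5.88, 5.57 and 5.88 with control and 5.49, 5.88 and 5.88 with Norrin-expressing cells, a difference of -0.03 ± 0.147 (limma adjusted p = 0.976). Its arrays overlapped. Only 0.456% of all genes, 83, were called in Fz4-/- cells, and 1554 genes, Gadd45a, Gadd45b and Gadd45gip1 among them, had an unadjusted p under 0.05. Their arrays did not overlap in Fz4-/- cells for 3 of the 4 members, against 19.5% of all genes, and in wild type for the same 3, against 21.4%.

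The Norrin response itself differed between the genotypes for 2 of the 4 members, where 2.12% of all genes were called and 0.874% were called higher. For Gadd45b the Fz4-/- response minus the wild type response was 0.96 ± 0.173 (95% interval 0.59 to 1.32, limma adjusted p = 0.00474). For Gadd45a it was 0.70 ± 0.151 (95% interval 0.38 to 1.02, limma adjusted p = 0.0187), with all wild type arrays lower and all Fz4-/- arrays higher with Norrin. The responses of wild type and Fz4-/- cells were measured in different array sets, whose part in this difference was not tested.

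For Gadd45g the difference was 0.28 ± 0.207 (95% interval -0.16 to 0.71, limma adjusted p = 0.686) and for Gadd45gip1 0.21 ± 0.149 (95% interval -0.11 to 0.52, limma adjusted p = 0.67). Both intervals hold 0, and that of Gadd45g reaches the value of Gadd45a while that of Gadd45gip1 ends below it. The bright probe set 1449773_s_at of Gadd45b gave 1.15 ± 0.153 (limma adjusted p = 0.000697) and the dim 1420197_at 0.32 ± 0.174 (limma adjusted p = 0.561). The call for Gadd45a was lost at an adjusted p of 0.0507 to 0.0603 without replicate 2 of the wild type control, or replicate 1 or 2 of either Fz4-/- co-culture. With replicates 2 and 3 averaged it was lost for both genes, at 0.68 for Gadd45a (limma adjusted p = 0.227) and 0.90 for Gadd45b (limma adjusted p = 0.0745), and with all 24 arrays in 1 fit for Gadd45b (limma adjusted p = 0.162).

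**Figure D3:**
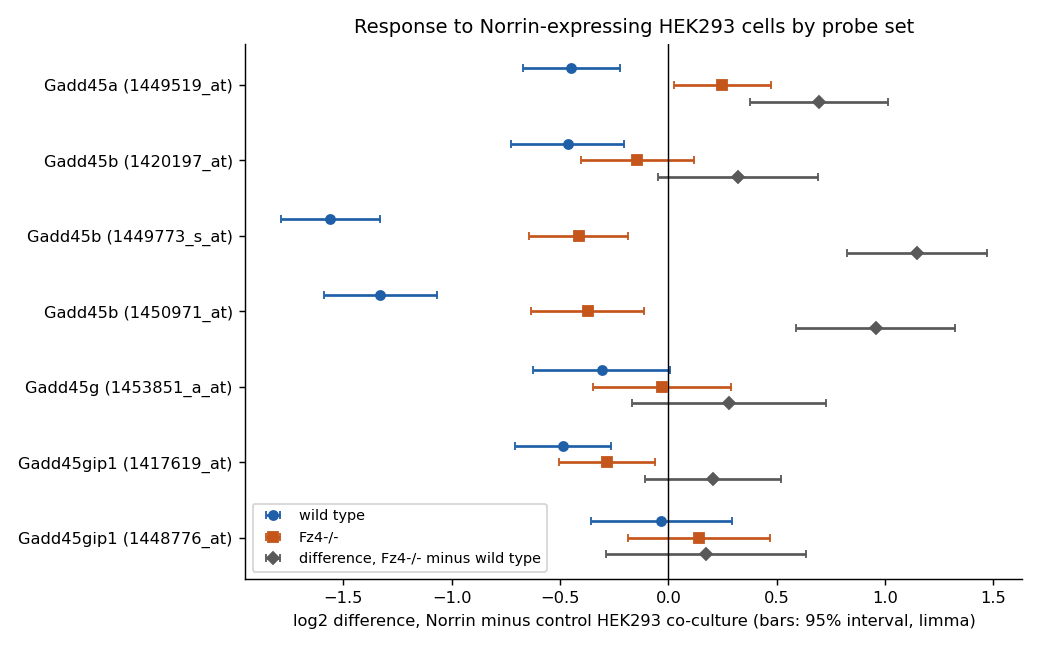
Log2 difference between co-cultures with Norrin-expressing and control HEK293 cells (horizontal axis) for the 7 probe sets, in wild type cells (circles), in Fz4-/- cells (squares) and the difference between them (diamonds), with 95% intervals from limma. The bright probe sets of Gadd45b lie farthest below 0 in wild type, at -1.33 and -1.56, and Gadd45a lies below 0 in wild type and above it in Fz4-/- cells.

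Endothelial markers moved with the Norrin comparison. Of the 12, 9 rose and none fell in wild type cells, where 5.39% of all genes were called higher. In Fz4-/- cells 1 rose, where 0.214% of all genes were called higher. The markers' median in wild type was 0.64 against -0.02 over all genes. Their mean level per array was 6.05 to 6.24 with control and 6.63 to 6.91 with Norrin-expressing cells in wild type, and 6.996 to 7.08 against 7.13 to 7.27 in Fz4-/- cells. The fibroblast gene Dcn fell by 2.91 ± 0.216 in wild type (limma adjusted p = 8.05e-08), while the other 3 fibroblast markers measured, Col1a1, Pdgfra and Lum, did not pass the test. The part of the cell mixture, and of human RNA on the mouse probes, in the members' differences was not tested.

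Known regulators and neighbours of the family in stress pathways were read in the same co-cultures, from lists of related genes that share some members. Among all genes, 5.39% were called higher and 4.18% lower with Norrin in wild type, and 0.214% and 0.242% in Fz4-/- cells. For the genotype difference in the response these shares were 0.874% and 1.24%. Of 17 NF-kB target genes, 13 fell and none rose in wild type cells, with a median of -0.79. Cxcl2 and Cxcl1, chemokines for neutrophils, fell by 4.42 ± 0.135 and 3.70 ± 0.103 (limma adjusted p = 1.54e-13 and 5.36e-14), and Nfkbia, which encodes the inhibitor IkB-alpha, by 0.71 ± 0.158 (limma adjusted p = 0.00644). Of the 17, 4 fell in Fz4-/- cells, with Cxcl2 and Cxcl1 at -2.56 ± 0.135 and -2.55 ± 0.103 (limma adjusted p = 2.4e-09 and 3.77e-11). The difference between the genotypes passed for 4 of the 17, among them Cxcl2 at 1.86 ± 0.191 (limma adjusted p = 4.33e-05).

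Of 20 p53 target genes, 8 fell and 1 rose with Norrin in wild type cells, with a median of -0.34, and none passed in Fz4-/- cells, with a median of 0.11. Of all genes, 4.18% were called lower and 5.39% higher in wild type. Pmaip1, which encodes the pro-apoptotic Noxa, fell by 1.33 ± 0.123 and Mdm2, the ubiquitin ligase that limits p53, by 0.93 ± 0.134 (limma adjusted p = 1.03e-06 and 0.000167). Cdkn1a read -0.39 ± 0.145 and did not pass (limma adjusted p = 0.108). Mdm2 read 0.21 ± 0.134 in Fz4-/- cells (limma adjusted p = 0.725), and its genotype difference was 1.14 ± 0.19 (limma adjusted p = 0.00229).

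Of 21 ATF4 and unfolded protein genes, 6 fell in wild type cells, where 4.18% of all genes were called lower. Atf3, a stress-induced transcription factor, fell by 1.18 ± 0.13 (limma adjusted p = 7.39e-06), and Atf4 by 0.33 ± 0.1 (limma adjusted p = 0.0427). For Fz4-/- cells, Hspa5, the main chaperone of the endoplasmic reticulum, was the single gene of this list past the threshold, higher by 0.63 ± 0.106 (limma adjusted p = 0.00857). Of the 4 growth arrest and DNA damage genes outside the family, Ddit3 (CHOP, also Gadd153) fell by 0.82 ± 0.113 and Ddit4 by 0.70 ± 0.117 in wild type (limma adjusted p = 0.000109 and 0.000683), while Ppp1r15a (Gadd34) read -0.17 ± 0.139 (limma adjusted p = 0.568). For Ddit3 and Ddit4 the genotype difference passed, at 0.89 ± 0.161 and 0.99 ± 0.166 (limma adjusted p = 0.00474 and 0.00241).

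Of 12 partners and p38/JNK genes, Pcna alone passed with Norrin in wild type, where 9.57% of all genes were called. It was higher by 0.79 ± 0.114 (limma adjusted p = 0.000166). Map3k4 read -0.20 ± 0.154 and Cdk1 0.07 ± 0.118 (limma adjusted p = 0.535 and 0.82). Of 47 proteins of the large mitochondrial ribosomal subunit, to which Gadd45gip1 belongs, 3 rose and 2 fell, with a median of -0.05, where 5.39% of all genes were called higher and 4.18% lower. These shares are near those of all genes. None of the 12 or of the ribosomal proteins passed in Fz4-/- cells.

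**Figure D4:**
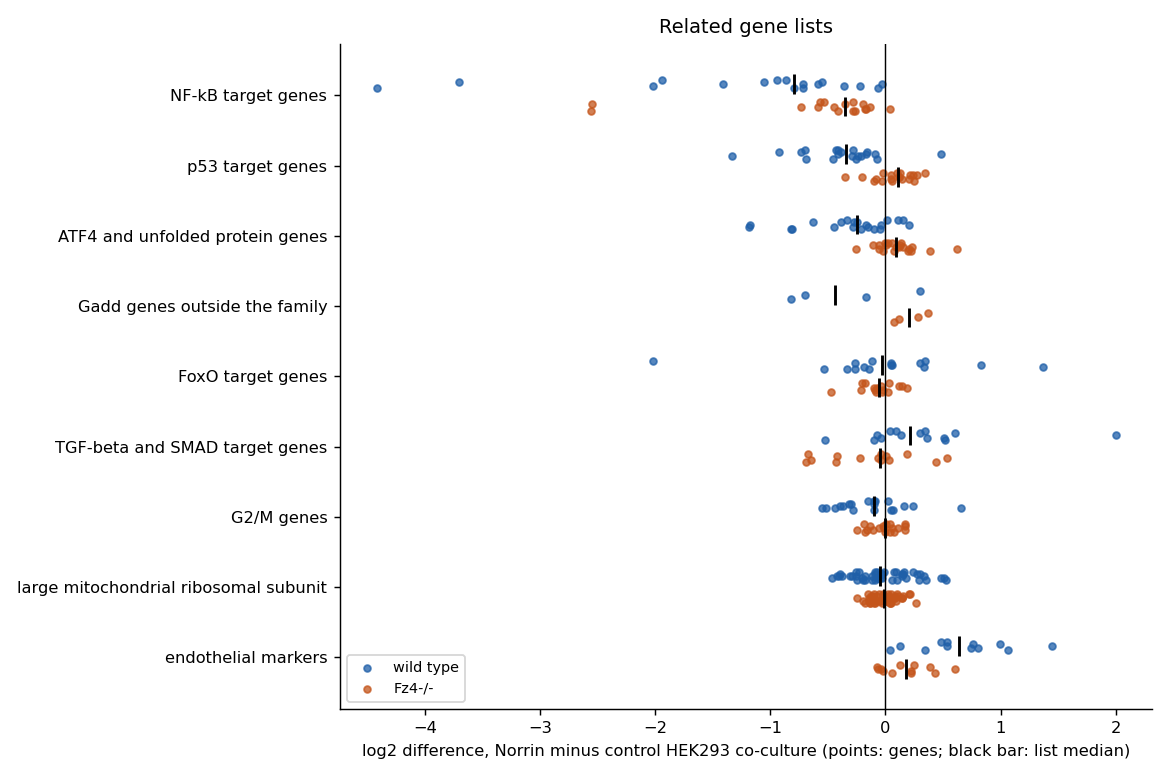
Log2 difference between co-cultures with Norrin-expressing and control HEK293 cells (horizontal axis) for genes of 9 related lists, upper points wild type and lower points Fz4-/-, with a black bar at each list's median. The NF-kB list has medians of -0.79 in wild type and -0.35 in Fz4-/- cells, and the endothelial markers 0.64 and 0.18.

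Between genotypes in single cultures, the mean over both surfaces was tested for the 3 members whose Matrigel responses did not choose the family, and 2 of them, Gadd45b and Gadd45gip1, were lower in Fz4-/- cells. Of all genes, 26.5% were called and 13.8% called lower. Gadd45b was lower by 0.84 ± 0.206 (1.79-fold, 95% interval -1.29 to -0.39, limma adjusted p = 0.00964), and all Fz4-/- arrays lay below all wild type arrays on each surface. Without replicate 1 of every group it was -0.71 (limma adjusted p = 2.83e-05). Its probe set 1449773_s_at gave -0.78 ± 0.128 (limma adjusted p = 0.000864) and 1420197_at -0.33 ± 0.136, which did not pass (limma adjusted p = 0.107).

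Gadd45gip1 was lower by 0.36 ± 0.0517 (1.29-fold, 95% interval -0.48 to -0.25, limma adjusted p = 0.000279), again with no overlap on either surface, and its second probe set was lower by 0.32 ± 0.0746 (limma adjusted p = 0.00783). Gadd45g read -0.06 ± 0.0886 (95% interval -0.25 to 0.14, limma adjusted p = 0.721), with overlap on both surfaces. For Gadd45a the same mean was -0.67 ± 0.0657, given without a test: it came from the Matrigel arrays (-1.30 ± 0.0929), since the genotypes overlapped on gelatin (-0.04 ± 0.0929). With each array centred on its median, the median of all genes moved from 0.01 to 0.11 and the share of calls that were higher from 47.8% to 70%, while Gadd45b read -0.74 and Gadd45gip1 -0.26 (limma adjusted p = 0.011 and 0.00398).

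In Fz4-/- single cultures, 13.8% of all genes were called lower and 12.7% higher than in wild type. G2/M genes, which include the Gadd45 partner Cdk1, were lower: 19 of 19 fell, with a median of -1.60, and Cdk1 by 1.28 ± 0.289 (limma adjusted p = 0.00594). Their mean level was 6.38 and 6.67 in replicate 1 of Fz4-/- cells on gelatin and Matrigel and 8.09 to 8.14 in the other 4 Fz4-/- arrays, against 8.81 to 9.27 in wild type. For Gadd45b, replicate 1 was the lowest array on both surfaces in Fz4-/- and in wild type cells. Of 20 p53 target genes, 6 fell and 3 rose: Pmaip1 fell by 1.72 ± 0.122 (limma adjusted p = 1.19e-06), and Cdkn1a read -0.01 ± 0.0789 (limma adjusted p = 0.976). Of the 4 growth arrest and DNA damage genes outside the family, Ddit3 alone passed, lower by 1.00 ± 0.15 (limma adjusted p = 0.000405). Of 47 mitochondrial ribosomal proteins 8 fell and 2 rose.

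In the co-cultures, Gadd45a, Gadd45b and Gadd45g, 3 of the 4 members, read lower in Fz4-/- than in wild type cells with control HEK293 cells, where 50.9% of all genes were called and 38.8% called lower. The differences were -1.13 ± 0.107 for Gadd45a, -1.79 ± 0.122 for Gadd45b and -1.47 ± 0.147 for Gadd45g (limma adjusted p = 1.68e-07, 2.54e-09 and 3.06e-07), and -0.12 ± 0.105 for Gadd45gip1 (limma adjusted p = 0.336). For these 3 genes no array of one genotype reached the other, which held for 60.0% of all genes. With Norrin-expressing HEK293 cells the same 3 were lower, where 49.9% of all genes were called and 38.4% called lower. There the differences were -0.43 ± 0.107, -0.83 ± 0.122 and -1.20 ± 0.147 (limma adjusted p = 0.00284, 2.73e-05 and 3.61e-06), and 0.08 ± 0.105 for Gadd45gip1 (limma adjusted p = 0.542). The dimmer probe set 1448776_at of Gadd45gip1 was lower in Fz4-/- cells without overlap in both comparisons. It read -0.65 ± 0.154 with control and -0.48 ± 0.154 with Norrin-expressing cells (limma adjusted p = 0.00279 and 0.0188), so its 2 probe sets disagreed.

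These genotype values coincide with array set and cannot be told apart from it. The median of all genes was -0.20 in both comparisons and near 0 after quantile normalization, when the share of calls that were higher went from 23.8% to 49.4% with control and from 23.1% to 50.9% with Norrin-expressing cells. The Gadd45a difference with Norrin-expressing cells was then -0.265 and no longer passed (limma adjusted p = 0.0638), and that of Gadd45gip1 was 0.25 and passed (limma adjusted p = 0.0359). Gadd45g differed between genotypes here and not in single cultures, and the change between the settings was not tested, since the sets were fitted apart.

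**Figure D5:**
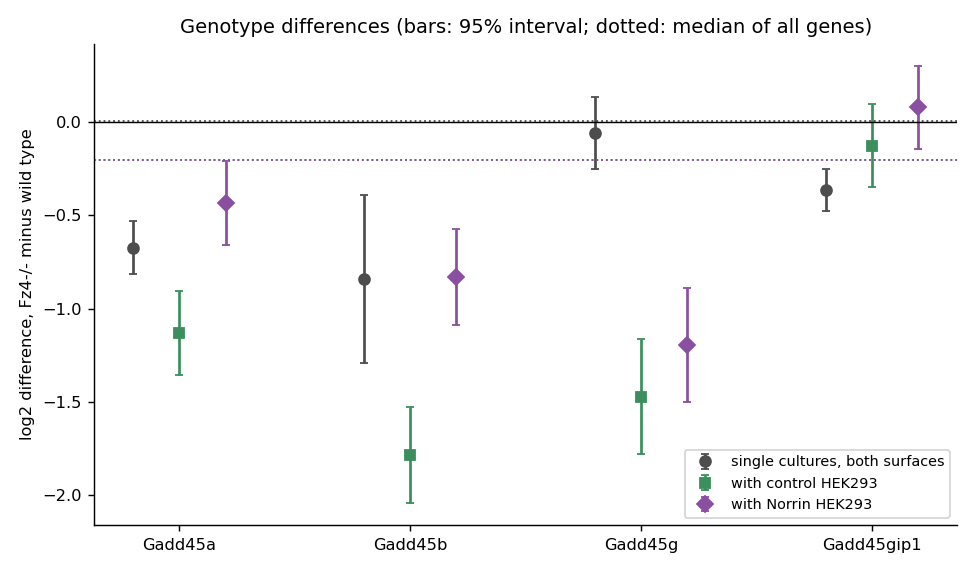
Log2 difference between Fz4-/- and wild type cells (vertical axis) for the 4 members in single cultures (mean over gelatin and Matrigel), with control HEK293 cells and with Norrin-expressing HEK293 cells, with 95% intervals from limma and the median of all genes as dotted lines. Gadd45b lies below 0 in all 3 settings, at -0.84, -1.79 and -0.83, and the single-culture value of Gadd45a is a description.

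The genes most like the members were found by Pearson's r over 12 arrays among 9095 genes above the median level. The points share groups, replicate numbers and array set, so these values are descriptions. In single cultures the closest to Gadd45a were Ankrd46 (0.90), Bcas2 (0.899), Dbt (0.899), Ss18l2 (0.895) and Fzd8 (0.893), and Gadd45a correlated with Gadd45gip1 at 0.729, with Gadd45b at 0.698 and with Gadd45g at -0.00346. The closest to Gadd45b were Oaz2 (0.989), Vars (0.983), Vps16 (0.982), Clpb (0.98) and Klhl25 (0.98). Genotype means were not removed in single cultures, and the Gadd45a values include those that chose the family. These correlations therefore do not show a shared Matrigel response.

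In co-cultures, after subtraction of each genotype's mean, the closest to Gadd45a were Mrps18b (0.93), Batf3 (0.913), Myo5a (0.886), Pcgf6 (0.883) and Orc4 (0.88). The closest to Gadd45b were Nfkb2 (0.971), which encodes an NF-kB subunit, Plk4 (0.969), Lcn2 (0.967), Ifnar2 (0.961) and Ppm1j (0.959). Gadd45b correlated with Gadd45gip1 at 0.855, with Gadd45a at 0.621 and with Gadd45g at 0.484. The 5 genes closest to Gadd45a and the 5 closest to Gadd45b had no gene in common in either setting.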

How the data were processed

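RNA of cultured cells was measured on 24 Affymetrix mouse arrays. The authors deposited log2 probe set values made with RMA (no version stated), per the submitters' processing notes. Which arrays were normalized together is not given in the sources used here. Of 45101 probe sets, 34945 have a single gene symbol; RefSeq (GRCm38.p6) held 34741 of them. Each of 18193 genes was read from its brightest probe set, by the mean of the 24 arrays. limma 3.58.1 (R 4.3.3; lmFit, eBayes) was fitted to the 12 single cultures and to the 12 co-cultures apart, with 8 residual degrees of freedom each, and p-values were adjusted by Benjamini-Hochberg over all genes at 0.05. It was tested on simulated data. The number of arrays limits the precision. The members and the lists were chosen with earlier results of these data known. Genes named are the members, Fzd4, up to 3 genes with the smallest adjusted p of each list, 12 fixed stress genes, and the 5 closest by correlation to Gadd45a and to Gadd45b. Same-numbered replicates deviated together (correlations 0.1 to 0.718) in 6 comparisons, and not with Norrin in Fz4-/- cells (-0.186 to 0.00603) or between genotypes with control HEK293 cells (-0.0482 to 0.0656). In those 6 comparisons an array was closest to its own number in 2 to 6 of 6 checks. Alternatives covered scaling, probe set choice, low genes, sample sets, the replicate block and left-out arrays.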

Additional observations from a re-analysis of the deposited data

Results flagged for a closer look

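The Norrin response of Gadd45a differed between genotypes, with an Fz4-/- minus wild type value of 0.6963 (log2; 0.70 rounded; limma adjusted p = 0.0187): all 3 wild type arrays read lower with Norrin and all 3 Fz4-/- arrays higher. The Fz4-/- rise did not pass (limma adjusted p = 0.529), with groups apart by 0.0314. The Norrin response of Gadd45b differed in the same sense, by 0.9569 (0.96 rounded; limma adjusted p = 0.00474), with lower values with Norrin in both genotypes. Its fall in Fz4-/- cells did not pass (limma adjusted p = 0.319). For both genes genotype coincided with array set, whose part was not tested. Groups of 3 arrays allow no outlier test.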

How the results depend on the processing

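Of 2 members called for the difference in Norrin response, 1 was called with all 24 arrays in 1 fit, 0 with replicates 2 and 3 averaged and 1 to 2 with 1 array left out. Gadd45b kept its Norrin call in wild type in all 23 alternatives (limma adjusted p 2.8e-07 to 0.000403). Gadd45a lost it in 3 (adjusted p 0.00384 to 0.143), with replicates 2 and 3 averaged at -0.40. Gadd45gip1 lost it with its probe sets averaged (-0.26, limma adjusted p = 0.119), which also gave -0.39 between genotypes with control HEK293 cells (limma adjusted p = 0.00352). Gadd45b between genotypes in single cultures was lost with replicates 2 and 3 averaged (-0.91, limma adjusted p = 0.0796), and Gadd45a with Norrin-expressing cells when arrays were centred (-0.23, limma adjusted p = 0.102). No member difference that passed as reported changed sign in an alternative. Gadd45gip1 between genotypes in co-cultures, which did not pass as reported, took both signs. It ranged from -0.39 to 0.07 with control and from -0.20 to 0.28 with Norrin-expressing cells. Without replicate 1 of every group, Norrin in wild type gave -0.55 for Gadd45a, -1.42 for Gadd45b and -0.41 for Gadd45gip1 (limma adjusted p = 0.00746, 0.000123 and 0.0379). The replicate block changed no member call: with it, Gadd45b between genotypes in single cultures had an adjusted p of 0.000199 (limma) and Gadd45a for the difference in Norrin response 0.0217. It moved the calls among all genes from 2719 to 4138 on gelatin, from 2854 to 4379 on Matrigel and from 3 to 8 for genotype by Matrigel.

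Counts of calls among all genes ranged, over the 23 alternatives, from 691 to 2507 (1741 as reported) for Norrin in wild type, 10 to 162 (83) in Fz4-/-, 90 to 562 (385) for their difference, 2357 to 8453 (4824) for genotype in single cultures, 5040 to 16384 (9253) and 4735 to 16308 (9079) in co-cultures with control and Norrin-expressing cells, 574 to 5997 (3356) and 712 to 6674 (3592) for Matrigel, 667 to 4911 (2719) and 736 to 4857 (2854) for genotype on gelatin and Matrigel, and 0 to 61 (3) for genotype by Matrigel. The highest counts come in part from fitting 34945 probe sets in place of 18193 genes. Where an alternative ended a call, the cause was not tested.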

Other observations

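Lists tied to other regulators of the family were measured too. Among all genes, 5.39% were called higher and 4.18% lower with Norrin in wild type, and 0.214% and 0.242% in Fz4-/- cells. For the genotype difference the shares were 0.874% higher and 1.24% lower. Of 14 TGF-beta and SMAD target genes, 3 rose and 1 fell with Norrin in wild type cells, and 1 rose and 2 fell in Fz4-/- cells. Ccn2, which encodes a matrix-associated growth factor, had a difference of 2.00 ± 0.102 in size in wild type (limma adjusted p = 7.73e-10). Its Fz4-/- response minus its wild type response was -1.46 ± 0.144 (limma adjusted p = 2.76e-05). The genotype difference passed for 5 of the 14, all lower, with Id1 at -1.01 ± 0.154 (limma adjusted p = 0.00104). Of 16 FoxO target genes, 2 rose and 2 fell with Norrin in wild type and none passed in Fz4-/- cells. Tnfsf10, which encodes the death ligand TRAIL, rose by 1.37 ± 0.167 and Sod2, the mitochondrial superoxide dismutase, fell by 2.02 ± 0.107 (limma adjusted p = 2.34e-05 and 1.26e-09).

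Of 10 DNA demethylation genes, 2 rose and 1 fell on Matrigel in wild type, and 1 rose and 2 fell in Fz4-/- cells. Among all genes, 6.71% were called higher and 11.7% lower in wild type, and 7.91% and 11.8% in Fz4-/- cells. The oxidase gene Tet1 was higher on Matrigel in both genotypes, by 0.77 ± 0.0975 and 0.75 ± 0.0975 (limma adjusted p = 0.000581 and 0.000519). Tet3 was lower in both, at -0.40 ± 0.0764 and -0.43 ± 0.0764 (limma adjusted p = 0.00505 and 0.00284). Ercc5, a nuclease of nucleotide excision repair, was the single gene of this list past the threshold with Norrin in wild type, at -0.43 ± 0.121 (limma adjusted p = 0.0298).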
